A study of Mus musculus with 8 samples.

Results

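Retinoic acid is the signalling form of vitamin A, and the genes described here are 10 mouse genes that make it, carry it, break it down or receive it: Rdh10, Aldh1a1, Aldh1a2, Aldh1a3, Crabp1, Crabp2, Cyp26b1, Rara, Rarb and Rarg. They were taken by symbol from the 27179 genes of a deposited count table, and all 10 were found in it. The set was put together because the mRNA of Aldh1a3 was among those with the largest falls in these same libraries, so the values of Aldh1a3 are a description and carry no test. The other 9 were listed for their place in the pathway, with earlier results of these data known.

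The libraries were unstranded sequencing libraries of polyadenylated RNA from the embryonic cerebral cortex of 8 mice. The Taf8-intact embryos (n = 4) were Taf8 +/+, and the Taf8-deleted embryos (n = 4) were Taf8 -/lox, which is 1 null and 1 loxP-flanked allele. Taf8 is a subunit of TFIID, the factor that places RNA polymerase II at promoters. The recombinase, the cells in which it acted, the embryonic stage and the strain were not in the labels used here, and no agent is named for either group. The animal numbers were 408.4, 408.5, 408.6 and 409.2 in the intact group and 456.1, 472.1, 477.1 and 486.1 in the deleted group. Each embryo has its own number, but 3 intact embryos share the number before the point, which the labels do not explain.

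Each library held 39590959 to 44788200 counts. Taf8 itself had 1222 to 1491 counts in the intact and 14 to 30 in the deleted libraries, so every library matched its label. The tissue label was checked on 2 defining genes of the developing cortex. Emx1, a transcription factor gene of the dorsal forebrain, was at 61.5 ± 4.56 CPM (library-size scaled counts, the field's usual unit) in the intact and 49.9 ± 3.52 CPM in the deleted cortex (SD, n = 4 each). Tbr1, a transcription factor gene of early cortical neurons, was at 388 ± 9.87 and 295 ± 15.3 CPM, and both genes were present in every library. Neighbouring tissue is not excluded by this check, because the 18 markers of the striatal region described below were also present in every library. In whole tissue, fewer cells of a type and less RNA per cell cannot be told apart, and this applies to every level below.

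Retinol is oxidised to retinaldehyde by RDH10, and retinaldehyde is oxidised to retinoic acid by the dehydrogenases ALDH1A1, ALDH1A2 and ALDH1A3. The binding proteins CRABP1 and CRABP2 carry retinoic acid in the cytoplasm, enzymes of the CYP26 family degrade it, and the nuclear receptors RARA, RARB and RARG, paired with a retinoid X receptor, bind DNA at retinoic acid response elements. In the developing forebrain the meninges are a known source of retinoic acid through ALDH1A2 and RDH10, while ALDH1A3 is known from the subpallium, where the striatum forms. Rarb is known both as a receptor of the striatum and as a gene that retinoic acid itself induces.

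At each step from synthesis to reception at least 1 of the 10 genes differed in mRNA level, as did 63.5% of all genes tested. The synthesis gene Aldh1a3 was 8.90 times lower in the deleted cortex, the breakdown gene Cyp26b1 and the receptor genes Rarb and Rarg fell, Crabp1 fell while Crabp2 rose, and Rdh10 rose. Of the 10 genes, 8 passed the filter on low counts, all of them with every library of both groups above its minimum, and Aldh1a1 and Aldh1a2 did not pass. Without Aldh1a3, 2 of the 7 tested genes rose, 4 fell and 1 was not called at an adjusted p below 0.05 (edgeR, quasi-likelihood). Among the 16074 genes that entered the test, 63.5% were called, 30.6% higher and 32.9% lower, with 4919 genes higher and 5290 lower. The balance of these calls depends on the scaling, with 5894 higher and 4416 lower when library totals alone were used. Because the genes were proposed from this same contrast nothing is read from their count beside that background. The ranges of the 4 intact and the 4 deleted libraries did not overlap for 6 of these 7 genes, against 57.7% of all genes tested (27.6% higher and 30.1% lower).

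**Figure D1:**
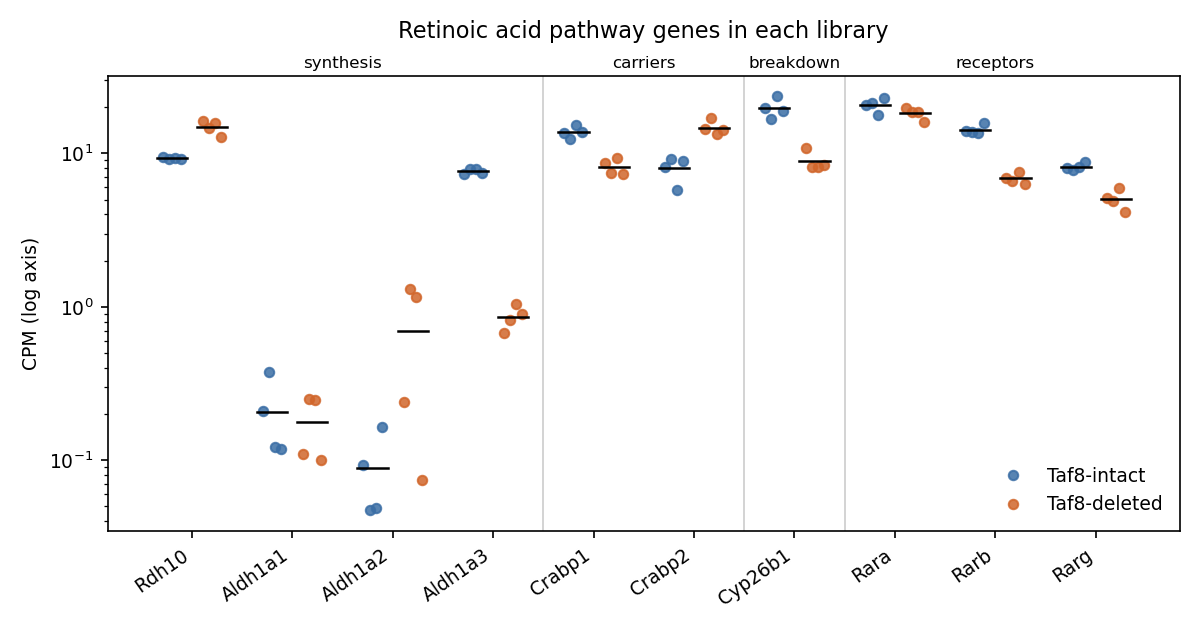
CPM of the 10 retinoic acid pathway genes (log axis), grouped by role, with 1 point per library in Taf8-intact (blue) and Taf8-deleted (orange) cortex and a bar at each group mean. Aldh1a3 sits at 7.32 to 7.94 CPM in the intact and 0.679 to 1.04 CPM in the deleted libraries, and only Aldh1a1, Aldh1a2 and Rara have overlapping groups.

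Aldh1a3 (chromosome 7, 66390892 to 66427477 in GRCm38, minus strand) encodes 1 of the dehydrogenases that complete the synthesis of retinoic acid. Its level was 7.32, 7.94, 7.91 and 7.40 CPM in the intact libraries. In the deleted libraries it was 0.679, 0.817, 1.04 and 0.898 CPM. Every deleted library was far below every intact one, and the spread within each group was small beside the gap. The means were 7.64 ± 0.328 and 0.858 ± 0.151 CPM (SD, n = 4 each), a log2 fold change of -3.15 ± 0.13 (SE). Only 2 of the 16074 genes tested had a more negative fold change. No exon of another annotated gene overlaps its exons, so its reads have no competing gene on either strand.

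The other ALDH1A genes of the set were near the limit of detection. Aldh1a1 (gene ID 11668, chromosome 19, 20492583 to 20643463) had 9, 16, 5 and 5 counts in intact and 5, 11, 11 and 4 counts in deleted cortex, and the groups overlapped. Aldh1a2 (gene ID 19378, chromosome 9, 71215789 to 71296243), the main enzyme of the early embryo, had 4, 2, 2 and 7 counts in the intact and 11, 58, 51 and 3 in the deleted libraries. The higher values of Aldh1a2 came from deleted replicates 2 and 3, while deleted replicate 4 lay inside the intact range. With no filter on low counts, the same edgeR model run on 21690 genes gave Aldh1a2 a log2 fold change of 2.94 ± 1.00 (SE) with adjusted p = 0.0465, and Aldh1a1 one of -0.22 ± 0.46 with adjusted p = 0.721.

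Levels of the 3 enzymes were also compared per kilobase of the gene length in the deposited table. Together they reached 2.30, 2.54, 2.41 and 2.31 CPM per kilobase in the intact and 0.360, 0.944, 0.937 and 0.346 in the deleted libraries, and the groups did not overlap. In the intact cortex Aldh1a3 made up 91.9% to 96.6% of this sum. Its share in the deleted libraries was 55.5%, 25.4%, 32.6% and 76.3%, and in deleted replicates 2 and 3 Aldh1a2 held the larger share, at 61.6% and 54.3%. Which of the 3 mRNAs was the most abundant thus differed between embryos of the deleted group. Since the sum contains Aldh1a3, it is given without a test.

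Meningeal markers moved in part with Aldh1a2. The 12 markers of meningeal fibroblasts, among them Col1a2, Col3a1 and Foxc1, summed to 77.5, 72.2, 69.2 and 116 CPM in the intact libraries. In the deleted libraries they summed to 189, 229, 268 and 96.3 CPM, so that replicates 2 and 3 were the highest in both the markers and Aldh1a2. Deleted replicate 1 was also above every intact library in the markers, but it had only 11 counts of Aldh1a2, against 58 and 51 in replicates 2 and 3. In edgeR 7 of the 12 markers (58.3%) were called, each of them higher, against 30.6% of all genes tested. Only 2 of the 12 markers had intact and deleted ranges that did not overlap, against 57.7% of all genes tested. The median over the list was 1.24 (log2), and Lum was at 0 counts in 1 library. Markers of the choroid plexus, the tissue that secretes cerebrospinal fluid, were highest in intact replicate 4 (311 CPM over 10 genes) and deleted replicate 1 (954 CPM), against 16.0 to 163 CPM in the other libraries. None of those 10 markers passed the test in edgeR, while 63.5% of all genes tested were called. The list includes the transport protein gene Ttr, whose product carries retinol in the blood together with RBP4. Ttr was at 3.16, 1.51, 9.37 and 257 CPM in the intact and 822, 43.0, 128 and 0.549 CPM in the deleted libraries. The part of these tissues in the Aldh1a2 values was not tested.

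**Figure D2:**
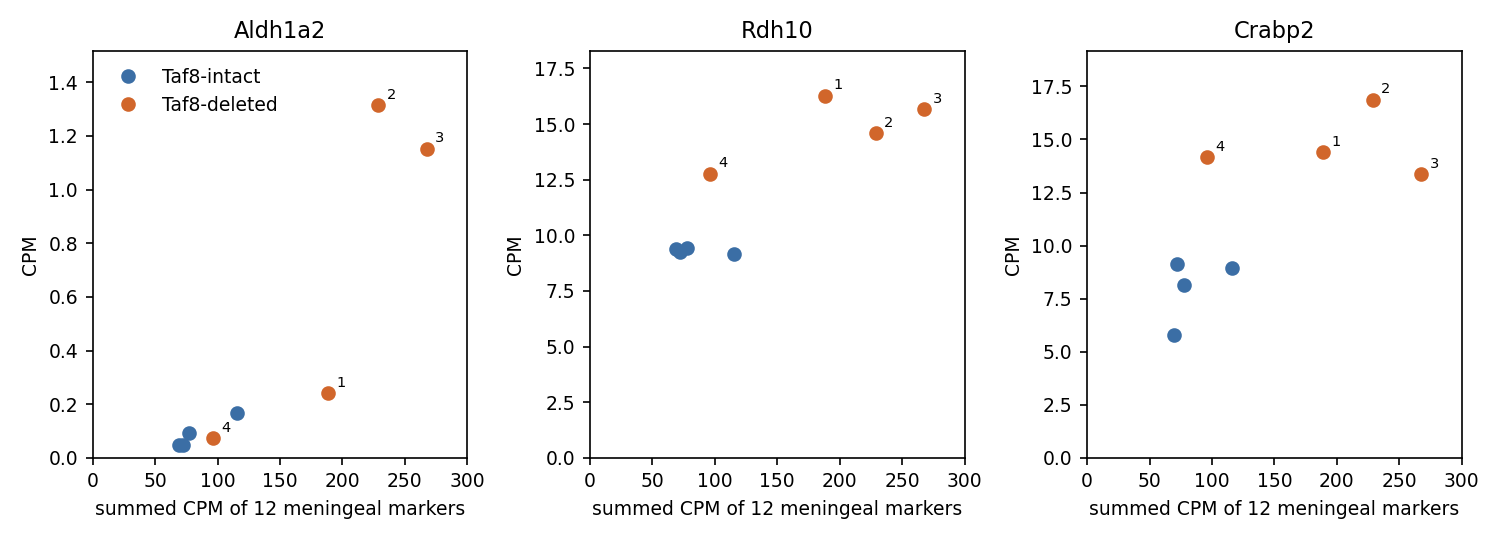
CPM of Aldh1a2, Rdh10 and Crabp2 against the summed CPM of 12 meningeal markers, 1 point per library, with the replicate number beside the deleted libraries (orange). Deleted replicate 4, at 96.3 CPM of markers, lies below intact replicate 4 (116 CPM) and above the other intact libraries (blue). Its Aldh1a2 level is inside the intact range, and its Rdh10 and Crabp2 levels are above those of all 4 intact libraries. This is 1 library, and the part of the meninges was not tested.

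Rdh10 (gene ID 98711, chromosome 1, 16105882 to 16132550), whose enzyme makes retinaldehyde and so feeds the ALDH1A step, rose. It was at 9.44, 9.24, 9.39 and 9.18 CPM in the intact and 16.3, 14.6, 15.7 and 12.8 CPM in the deleted libraries. The intact libraries were almost equal and all deleted libraries lay above them. The log2 fold change was 0.67 ± 0.08 (SE; edgeR quasi-likelihood, adjusted p = 8.96e-06). Deleted replicate 4 had the lowest deleted value, 12.8 CPM, which was above the highest intact value. Its meningeal markers (96.3 CPM) lay below those of intact replicate 4 (116 CPM) and above those of the other intact libraries. Its choroid plexus markers were the lowest of all libraries. When deleted replicates 2 and 3 were dropped, a choice made once the marker sums were known, the log2 fold change was 0.64, and deleted replicate 1, with 189 CPM of meningeal markers, remained in that set. The part of the meninges in the Rdh10 and Crabp2 values was not tested.

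The carrier genes went in opposite directions. Crabp1 (gene ID 12903, chromosome 9, 54764748 to 54773110), whose protein is known for holding retinoic acid in the cytoplasm and aiding its breakdown, was at 13.6, 12.5, 15.3 and 13.8 CPM in the intact and 8.63, 7.42, 9.35 and 7.38 CPM in the deleted libraries. It fell by 0.75 ± 0.09 on the log2 scale (SE; edgeR quasi-likelihood, adjusted p = 1.66e-05). Crabp2 (gene ID 12904, chromosome 3, 87948693 to 87953372), known for passing retinoic acid to its receptors, was at 8.16, 9.12, 5.77 and 8.94 CPM in the intact and 14.4, 16.9, 13.4 and 14.2 CPM in the deleted libraries. It rose by 0.88 ± 0.13 on the log2 scale (SE; edgeR quasi-likelihood, adjusted p = 0.000163). Neither gene had an overlap between the groups.

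Per kilobase, the summed carrier mRNA was 27.5 ± 0.707 in the intact and 27.4 ± 1.27 CPM per kilobase in the deleted cortex (SD, n = 4 each). Within that sum the order of the genes was exchanged. Crabp1 held 62.5% to 76.3% of it in the intact libraries and 34.8% to 45.9% in the deleted ones.

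Cyp26b1 (gene ID 232174, chromosome 6, 84571414 to 84593908) encodes the CYP26 enzyme with measurable mRNA in this tissue and fell. It was at 19.7, 16.8, 23.5 and 18.9 CPM in the intact and 10.8, 8.19, 8.16 and 8.38 CPM in the deleted libraries. All deleted libraries were below all intact ones, with replicate 1 set above the other deleted libraries. The log2 fold change was -1.15 ± 0.12 (SE; edgeR quasi-likelihood, adjusted p = 8.15e-06). The related genes Cyp26a1 and Cyp26c1 were not tested for lack of counts, with 0 to 3 counts in every library.

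Of the 3 retinoic acid receptor genes, Rarb and Rarg fell and Rara was not called. Rarb (gene ID 218772, chromosome 14, 16430839 to 17082331, minus strand) was at 14.0, 13.7, 13.5 and 15.7 CPM in the intact libraries. In the deleted libraries it was at 6.92, 6.56, 7.59 and 6.36 CPM, about the same in every embryo and far from the intact range. The log2 fold change was -1.05 ± 0.08 (SE; edgeR quasi-likelihood, adjusted p = 2.17e-07). Exons of Rarb overlap those of Top2b and of the gene model Gm48162 on the opposite strand, over 2020 bases in all. Reads of these genes cannot be told apart from those of Rarb there without strand, so the reads of Rarb are uncertain. Top2b, a DNA topoisomerase gene, was far more abundant, at 883 ± 24.2 CPM in the intact and 613 ± 25.01 CPM in the deleted cortex (SD, n = 4 each), with a log2 fold change of -0.53.

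Rarg (gene ID 19411, chromosome 15, 102234938 to 102257522) was at 8.04, 7.80, 8.10 and 8.75 CPM in the intact and 5.10, 4.86, 5.96 and 4.16 CPM in the deleted libraries. The groups did not overlap, and the gene fell by 0.70 ± 0.10 on the log2 scale (SE; edgeR quasi-likelihood, adjusted p = 8.18e-05). Rara (gene ID 19401, chromosome 11, 98927800 to 98974942), the receptor known to be the most widely expressed, was at 20.7, 21.2, 17.9 and 22.9 CPM in the intact and 19.8, 18.6, 18.5 and 16.0 CPM in the deleted libraries. Its groups overlapped through intact replicate 3, the lowest of its group. The log2 fold change of Rara was -0.18 ± 0.08 (SE), with a 95% interval of -0.36 to -0.002 (edgeR quasi-likelihood, adjusted p = 0.0712). Rara was called lower without intact replicate 3 (log2 fold change -0.24, adjusted p = 0.0103) and with limma voom quality weights over all libraries (-0.19, adjusted p = 0.0343).

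The makeup of the receptor mRNAs differed between the groups on the scale per kilobase. In the intact cortex the order was Rarb at 5.13 ± 0.355, Rara at 5.003 ± 0.506 and Rarg at 2.55 ± 0.126 CPM per kilobase (SD, n = 4 each), and the ranges of Rarb and Rara overlapped. In the deleted cortex Rara led at 4.41 ± 0.383, followed by Rarb at 2.47 ± 0.195 and Rarg at 1.56 ± 0.232 CPM per kilobase, with no overlap between neighbours. The summed level of the 3 receptors was 11.7 to 13.9 in the intact and 7.47 to 9.07 CPM per kilobase in the deleted libraries. The share of Rarb in it was 39.5% to 41.5% against 28.1% to 30.7%, and that of Rara 36.9% to 41.1% against 49.3% to 54.0%. The order, sum and shares all use the reads of Rarb, which are uncertain because of the exon overlap described above.

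Over all 10 genes, the intact order per kilobase was Crabp1, Crabp2, Rarb, Rara, Cyp26b1, Rdh10, Rarg, Aldh1a3, Aldh1a1 and Aldh1a2. The ranges of neighbours overlapped from Rarb to Rdh10 and between Aldh1a1 and Aldh1a2. In the deleted cortex the order was Crabp2, Crabp1, Rdh10, Rara, Rarb, Cyp26b1, Rarg, Aldh1a2, Aldh1a3 and Aldh1a1. There the neighbours Cyp26b1 and Rarg overlapped, as did Aldh1a2 and Aldh1a3. Aldh1a3 itself went from 2.25 ± 0.0963 to 0.252 ± 0.0443 CPM per kilobase (SD, n = 4 each), which placed it beside the enzyme genes that were barely detected.

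A retinoid X receptor is the partner of each retinoic acid receptor on DNA. Rxrg fell, from 12.7, 10.5, 12.7 and 11.8 CPM in the intact to 4.71, 4.54, 4.04 and 4.59 CPM in the deleted libraries, a log2 fold change of -1.41 ± 0.08 (SE; edgeR quasi-likelihood, adjusted p = 4.83e-08). Rxra rose by 0.34 ± 0.04 on the log2 scale, and Rxrb fell by 0.14 ± 0.04 (SE). The call of Rxrb was lost with upper-quartile factors (adjusted p = 0.0708), with library totals only (adjusted p = 0.0974) and without the pair of libraries highest in choroid plexus markers (adjusted p = 0.0904). Rxrb was by far the most abundant of the partners, at 35.1 ± 1.00 CPM per kilobase in the intact and 32.0 ± 1.15 in the deleted cortex (SD, n = 4 each). Because of it the summed level of the partners differed little, at 47.1 to 50.01 against 43.5 to 46.2 CPM per kilobase, while the share of Rxrg went from 9.24% to 11.4% in the intact to 3.71% to 4.56% in the deleted libraries.

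**Figure D3:**
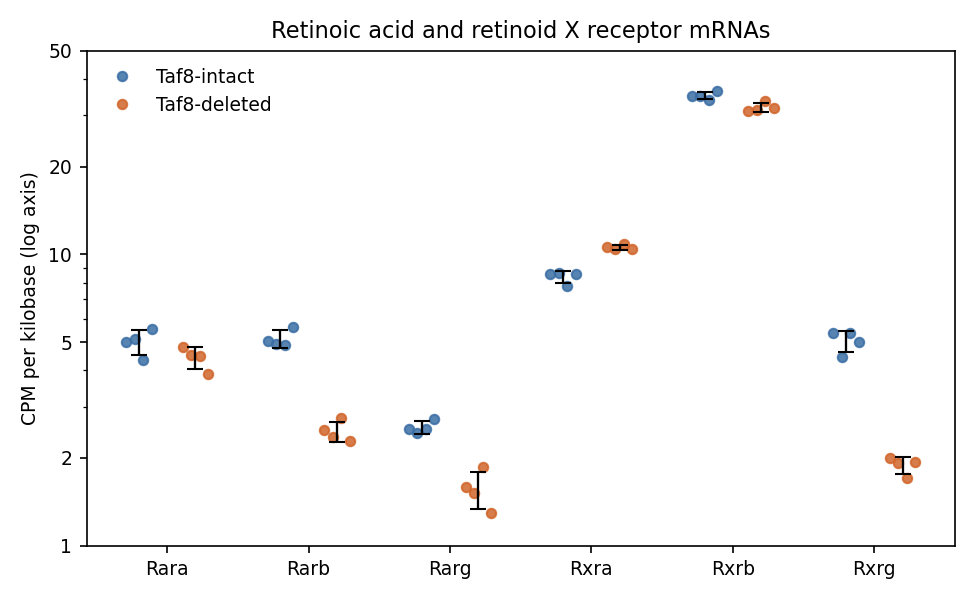
CPM per kilobase (log axis) of the retinoic acid receptor genes Rara, Rarb and Rarg and the retinoid X receptor genes Rxra, Rxrb and Rxrg, with 1 point per library and bars of 1 SD around the group mean. Rarb, Rarg and Rxrg are lower in all 4 deleted libraries (orange) than in all 4 intact ones (blue), Rxra is higher, and Rara overlaps.

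The promoter of Rarb holds the response element through which the gene is known to answer to retinoic acid, and its sequence is shown because Rarb is the retinoic acid receptor gene with the largest fall. Windows of 300 bases around annotated starts, 250 before and 50 after, came from RefSeq on GRCm38.p6 and were found for 7 of the 10 genes. Rdh10, Crabp2 and Aldh1a3 were without one. The element searched for is DR5, a direct repeat of a half-site that reads AGGTCA, or AGTTCA, or GGGTCA, or GGTTCA, with 5 bases between the copies, on both strands. The windows of Cyp26a1, the classical inducible retinoic acid hydroxylase, and of Cyp26b1 are shown for comparison, 5′ to 3′ on the strand of the gene, with DR5 and the TATA box letters TATAAA (strand of the gene only) in capitals. Neither of these 2 motifs overlapped the other.
Rarb, chr14:16575427-16575726, minus strand: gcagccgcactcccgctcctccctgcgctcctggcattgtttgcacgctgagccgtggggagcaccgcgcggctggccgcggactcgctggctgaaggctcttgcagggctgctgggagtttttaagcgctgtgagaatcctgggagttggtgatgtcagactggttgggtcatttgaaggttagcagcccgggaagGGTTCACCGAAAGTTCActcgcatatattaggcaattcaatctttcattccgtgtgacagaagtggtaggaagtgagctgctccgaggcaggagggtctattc
Cyp26a1, chr19:37697558-37697857, plus strand: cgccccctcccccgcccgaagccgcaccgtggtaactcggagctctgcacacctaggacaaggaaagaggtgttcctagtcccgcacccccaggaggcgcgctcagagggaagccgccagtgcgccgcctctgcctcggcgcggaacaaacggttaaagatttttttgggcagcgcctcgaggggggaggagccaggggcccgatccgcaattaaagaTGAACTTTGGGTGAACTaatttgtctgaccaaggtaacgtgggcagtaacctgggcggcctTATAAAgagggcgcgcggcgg
Cyp26b1, chr6:84593761-84594060, minus strand: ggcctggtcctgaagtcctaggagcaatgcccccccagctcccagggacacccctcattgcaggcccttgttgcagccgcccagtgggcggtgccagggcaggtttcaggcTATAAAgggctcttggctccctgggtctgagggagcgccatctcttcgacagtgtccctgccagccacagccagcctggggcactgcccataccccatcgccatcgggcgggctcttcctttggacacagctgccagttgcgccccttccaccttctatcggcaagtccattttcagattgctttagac

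DR5 was rare, present in 32 of 32851 windows or 0.0974%, while TATAAA was present in 8.32%. In Rarb the DR5 lay at positions -53 to -37 from the start, and in Cyp26a1 at -32 to -16 on the opposite strand. The letters TATAAA lay after the annotated start in Cyp26a1, at 30 to 35, and at -139 to -134 in Cyp26b1. A match is a description of letters and not of binding. The 32 windows belong to 31 genes, many of them gene models, of which 14 are in the count table and 7 were tested. Of these 7, 4 fell and 2 rose, and the median log2 fold change was -0.83, against 32.9% and 30.6% and a median of 0 over all genes tested, and the list includes Rarb itself. Besides Rarb the genes lower were Prokr2, a prokineticin receptor gene, at -1.10 ± 0.11, Syndig1, a synapse gene, at -0.83 ± 0.12 and the gene model Gm1043 at -0.97 ± 0.22 (log2 ± SE). Cfap45 and the embryonic globin gene Hbb-y were higher at 0.89 ± 0.33 and 0.56 ± 0.20 and each lost its call on leaving out single libraries (adjusted p up to 0.088 and 0.114), and Blvrb was not called at -0.27 ± 0.12 but was called lower without deleted replicate 3 (adjusted p = 0.0398).

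Beyond the genes above, lists of other retinoid genes were examined. They cover retinol uptake and storage, oxidoreductases, breakdown, the retinoid X receptors and receptor cofactors, with 52 genes in all. Of these, 38 were tested, 12 rose and 15 fell, which is 31.6% and 39.5%, near the 30.6% and 32.9% of all genes tested, with a median log2 fold change of -0.04.

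Of 9 tested genes of retinol uptake and storage, 2 rose and 3 fell. That is 22.2% higher and 33.3% lower, against 30.6% and 32.9% of all genes tested. Retsat, which saturates retinol, rose from 2.51, 3.18, 2.82 and 3.23 CPM in the intact to 13.3, 11.8, 11.1 and 9.87 CPM in the deleted libraries, a log2 fold change of 1.97 ± 0.11 (SE; edgeR quasi-likelihood, adjusted p = 2.98e-08). Its exons overlap a gene model on the opposite strand. Dgat1, whose enzyme can store retinol as an ester, rose by 0.30 ± 0.05. Rlbp1, a retinaldehyde-binding protein gene, fell from 75.5 ± 3.05 to 41.5 ± 2.83 CPM (SD, n = 4 each), and Rbp4, the retinol carrier of the blood, from 1.49 ± 0.420 to 0.298 ± 0.168 CPM.

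Of 10 tested oxidoreductase genes, whose enzymes interconvert retinol and retinaldehyde or related compounds, 4 rose and 3 fell. These shares, 40% higher and 30% lower, stand beside 30.6% and 32.9% of all genes tested. Rdh14 rose by 0.50 ± 0.05 and Rdh9 by 2.71 ± 0.36 on the log2 scale (SE). Rdh9 was scarce, at 0.0952 ± 0.0591 CPM in the intact and 0.639 ± 0.0777 CPM in the deleted cortex (SD, n = 4 each), and 2302 of its exon bases are shared with the annotated gene Rdh16f1 on the same strand, so its reads are uncertain. Adh5 and Rdh11, both abundant, fell by 0.22 ± 0.03 and 0.27 ± 0.04. The genes Dhrs9, Rdh1, Rdh16, Rdh19, Sdr16c5, Adh1, Adh4, Adh7, Rbp2, Rbp3 and Bco1 had too few counts to be tested.

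Fabp5, another intracellular carrier of retinoic acid, rose from 24.2 ± 1.07 to 32.5 ± 1.5 CPM (SD, n = 4 each), with a log2 fold change of 0.42 ± 0.05 (SE). Cyp1b1, a cytochrome gene known from the meninges and vessels, was at 0.651, 0.683, 1.19 and 1.02 CPM in the intact and 1.03, 2.09, 3.86 and 0.399 CPM in the deleted libraries. It was not called (edgeR quasi-likelihood, adjusted p = 0.172), its order among the deleted libraries was that of the meningeal marker sum, and without deleted replicates 2 and 3 its log2 fold change went from 1.06 to -0.30. Without deleted replicate 4 it was called higher (1.40, adjusted p = 0.0237).

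**Figure D4:**
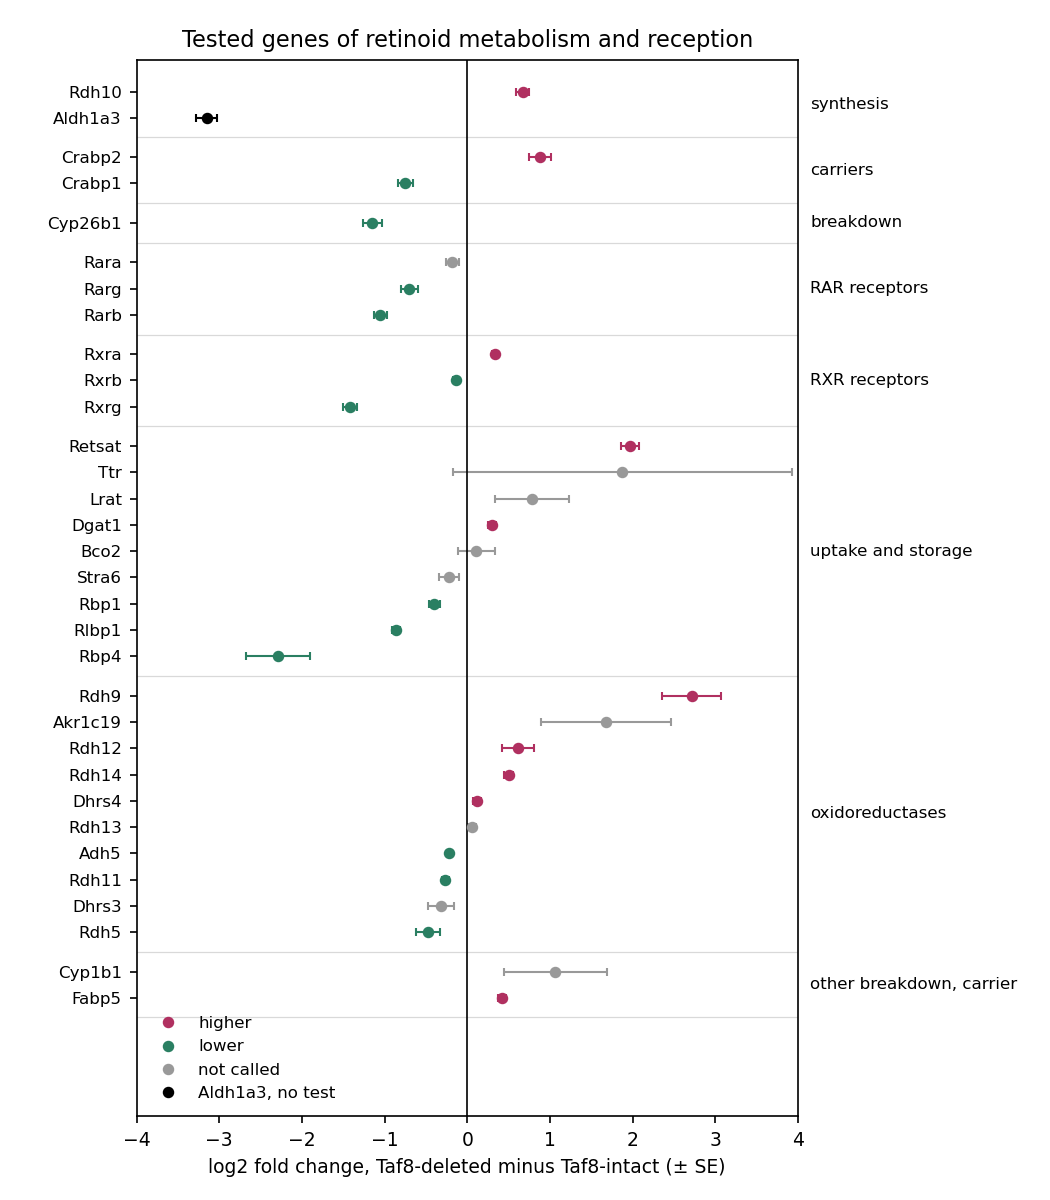
Log2 fold change (Taf8-deleted minus Taf8-intact, ± SE, 4 libraries each) of the tested genes of retinoid synthesis, transport, breakdown and reception, grouped by role and coloured by call (higher, lower or not called), with Aldh1a3 in black because it has no test. Each group of more than 1 gene holds values on both sides of 0 except the retinoic acid receptors, which are all negative, and the other breakdown and carrier genes, which are both positive.

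Cofactors of the receptors had log2 fold changes from -0.73 to 0.44. Of 14 tested genes, 4 rose and 7 fell, and the median log2 fold change was -0.17. That is 28.6% higher and 50% lower, against 30.6% and 32.9% of all genes tested. Nrip1, a corepressor gene that retinoic acid induces, fell from 27.8, 26.2, 30.03 and 25.1 CPM to 15.6, 16.4, 15.5 and 18.2 CPM, a log2 fold change of -0.73 ± 0.07 (SE). Acin1 and the Mediator gene Med1 fell by 0.57 ± 0.04 and 0.39 ± 0.04. Hdac3, the deacetylase of the corepressor complex, rose by 0.44 ± 0.03 and the Mediator gene Med25 by 0.33 ± 0.05. Acin1 overlaps other annotated genes on the opposite strand.

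Of 21 genes known to be induced by retinoic acid in 1 or another tissue, 13 were tested, 5 fell and 2 rose, and the median log2 fold change was -0.26. These shares, 38.5% lower and 15.4% higher, stand beside 32.9% and 30.6% of all genes tested. Besides Nrip1, Nr2f1, an orphan nuclear receptor gene of cortical area patterning, fell by 0.44 ± 0.04 on the log2 scale (SE), and the zinc finger gene Zfp703 by 0.33 ± 0.03. Btg2, an antiproliferative gene, rose by 0.52 ± 0.05. Nr2f2 was called higher at 0.22 ± 0.08 (edgeR quasi-likelihood, adjusted p = 0.0443), a call lost without intact replicate 1, 2 or 4 or deleted replicate 1, 2 or 4 (adjusted p = 0.0534 to 0.099) without either set of libraries highest in meningeal or choroid plexus markers, and with no filter on low counts (adjusted p = 0.078). Nr2f1, Nr2f2 and Zfp703 overlap other annotated genes, and 5 of the 21 genes are also in the lists of other retinoid genes.

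The other aldehyde dehydrogenase genes, which act on other aldehydes, were set beside Aldh1a3. Of 13 tested, 5 rose and 6 fell, and the median log2 fold change was -0.01. These shares, 38.5% higher and 46.2% lower, stand beside 30.6% and 32.9% of all genes tested. Aldh1l1, a folate enzyme gene known from radial glia and astrocytes, was at 23.5, 23.4, 27.3 and 24.8 CPM in the intact and 5.30, 5.33, 6.35 and 6.48 CPM in the deleted libraries, a log2 fold change of -2.08 ± 0.08 (SE). Aldh1b1, a mitochondrial member, fell by 0.80 ± 0.06 and Aldh16a1 by 0.67 ± 0.07. Aldh3a2, the fatty aldehyde dehydrogenase, rose by 0.47 ± 0.05 and Aldh7a1 by 0.32 ± 0.04. Aldh1l1, Aldh16a1 and Aldh7a1 overlap other annotated genes. Aldh1a7, Aldh3a1 and Aldh8a1 had too few counts to be tested.

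Markers of the striatum and of the lateral ganglionic eminence, the subpallial region next to the cortex that is known to express Aldh1a3 and Rarb, were mostly lower. Of 18 such markers, all tested, 13 fell, 2 rose and 3 were not called, which is 72.2% lower against 32.9% of all genes tested, and the median log2 fold change was -0.38. Lower levels were not particular to that list: the cortical genes Emx1 and Tbr1 also fell, by 0.30 ± 0.06 and 0.40 ± 0.04 on the log2 scale (SE). These 2 genes were chosen after their values were seen, and the other cortical genes examined included lower, higher and not called ones. The 18 striatal and lateral ganglionic eminence markers summed to 874 to 941 CPM in the intact and 755 to 777 CPM in the deleted libraries. Most of this sum was Meis2 alone, at 488 ± 18.7 CPM in the intact and 435 ± 10.4 CPM in the deleted cortex (SD, n = 4 each). None of these markers was at 0 in any library. The dopamine receptor gene Drd1 fell from 6.84 ± 1.37 to 1.39 ± 0.193 CPM and the transcription factor gene Ikzf1 from 8.36 ± 0.922 to 2.31 ± 0.335 CPM (SD, n = 4 each). The progenitor factor gene Gsx2 rose by 0.38 ± 0.10 on the log2 scale, and Penk by 0.31 ± 0.12. The call of Gsx2 was lost without deleted replicates 2 and 3 (adjusted p = 0.0584), and that of Penk without intact replicate 1, 2 or 4 or deleted replicate 1, 2 or 4 (adjusted p = 0.0511 to 0.107) and without the pair highest in choroid plexus markers (adjusted p = 0.171). Rxrg is in this list as well as among the retinoid X receptors. Interneuron markers, from cells that also arise in the subpallium, fell for 6 of 8 genes and rose for 1. These shares, 75% lower and 12.5% higher, stand beside 32.9% and 30.6% of all genes tested. The part of striatal, lateral ganglionic eminence and interneuron cells in the values of Aldh1a3, Rarb and Rxrg was not tested. Markers of other cell types also differed: 7 of 8 endothelial markers rose (87.5%), and of 8 radial glia markers 5 rose (62.5%) and 2 fell (25%). Over all genes tested, 30.6% were higher and 32.9% lower.

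Genes with a pattern like that of Aldh1a3 were sought over the 8 libraries among 12761 protein-coding genes, as those with the smallest root mean square difference of mean-centred log2 CPM. The 5 closest were Htr3a, a serotonin-gated channel gene, at a difference of 0.17, the incretin receptor gene Gipr at 0.21, the desaturase gene Scd1 at 0.24, the melanin enzyme gene Dct at 0.34 and the repressor gene Bcl6 at 0.35 (log2 units). Htr3a was at 5.07, 4.67, 5.30 and 5.05 CPM in the intact and 0.548, 0.703, 0.700 and 0.698 CPM in the deleted libraries. Like Aldh1a3, all 5 had intact and deleted libraries far apart, with mean levels 5.73 to 7.86 times lower in the deleted cortex. The likeness is set mostly by this difference between the groups, and within the deleted group the order of the libraries differed between the genes. Other pigment cell genes did not move with Dct: of 8 markers 4 were tested, and Pmel rose, at 0.186, 0.165, 0.219 and 0.379 CPM in the intact and 0.920, 0.726, 0.994 and 0.723 CPM in the deleted libraries.

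**Figure D5:**
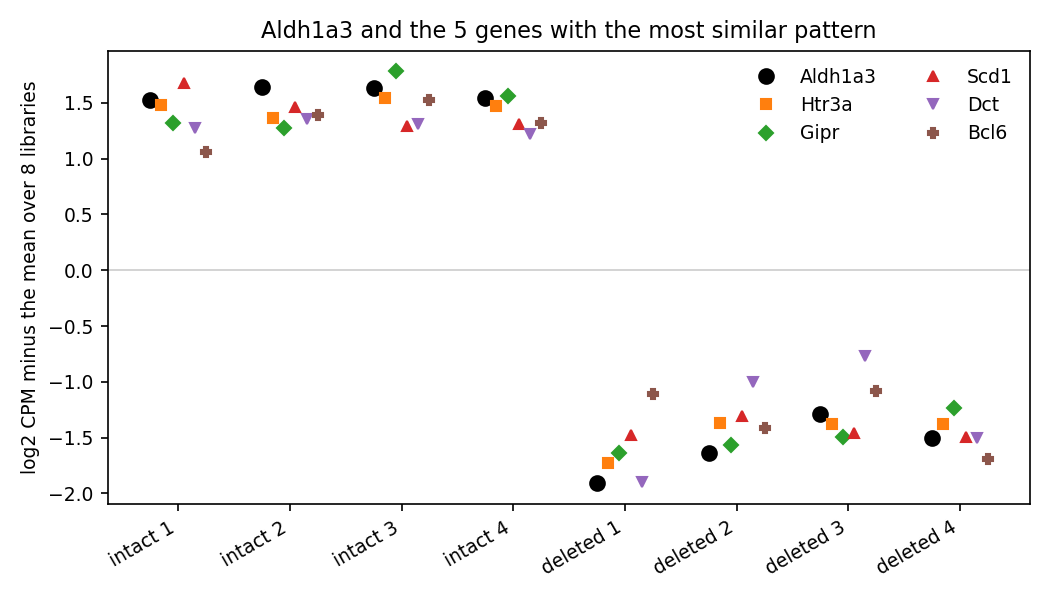
Log2 CPM minus each gene's mean over the 8 libraries for Aldh1a3 (black) and the 5 genes with the smallest root mean square difference from it, 1 symbol per gene and library. All 6 genes lie above 0 in the 4 intact and below 0 in the 4 deleted libraries.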

How the data were processed

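Polyadenylated RNA of 8 embryonic mouse cortices was measured, 4 Taf8-intact and 4 Taf8-deleted. The deposited values are raw counts per gene, and the authors' table also gives a gene length in bases; bcl2fastq 1.8.4, Subread 1.5.0, featureCounts and build mm10 are named per the submitters' processing notes, without roles. Annotation and multi-mapping: not given in the sources used here. Groups came from the labels. Symbols and positions came from RefSeq (GRCm38.p6) by gene ID and matched 25275 of 27179 IDs, and exon overlaps and strands from GENCODE M21 on GRCm38.

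Counts were filtered with filterByExpr, scaled with TMM factors and compared with edgeR 4.0.16 (R 4.3.3), by its robust quasi-likelihood test with Benjamini-Hochberg adjustment over 16074 genes and a threshold of 0.05. The script was tested on simulated data. CPM values use TMM-scaled totals, and log2 CPM a prior count of 2. At these depths 3 counts are 0.0670 to 0.0758 CPM; such limits cover counting error only. No 2 libraries of a group agreed within sampling noise.

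The genes, lists and tests were chosen with earlier results of these data known. Named were the 10 genes, Taf8, up to 4 genes with the smallest p of each retinoid or dehydrogenase list with up to 2 of the opposite direction, and the 5 genes most like Aldh1a3. The DR5 genes, Gsx2, Penk, Drd1, Ikzf1, Ttr, Pmel, Emx1, Tbr1 and Top2b were added after their values were seen. Alternatives used other size factors, filters, DESeq2 1.42.0, limma 3.58.1, a replicate block and fewer libraries.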

Additional observations from a re-analysis of the deposited data

Results flagged for a closer look

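In 7 of the 106 groups of 4 values examined, 1 library stood apart from the other 3 by a gap that passed Dixon's 95% critical value, and chance flags about 1 group in 20. Cyp26b1 in deleted replicate 1 was 10.8 CPM, against 8.38 CPM in the next library. The choroid plexus markers summed to 311 CPM in intact replicate 4 and 954 CPM in deleted replicate 1, where the next values were 22.4 and 163 CPM. Adh5 was 140 CPM in deleted replicate 1, Rxra was 40.9 CPM in intact replicate 3, Aldh16a1 was 15.2 CPM in deleted replicate 4 and Htr3a was 0.548 CPM in deleted replicate 1.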

How the results depend on the processing

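The directions and calls of Rdh10, Crabp1, Crabp2, Cyp26b1, Rarb and Rarg and the direction of Aldh1a3 held under all 19 alternatives run. The log2 fold change of Aldh1a3 ranged from -3.28 to -3.04 and that of Rarb from -1.10 to -0.99, and the largest adjusted p among the 6 was 0.00241, for Crabp2. Rara was called with voom quality weights (-0.19) and without intact replicate 3, and ranged from -0.24 to -0.12 on leaving out single libraries. The count of induced genes called higher was 4 with library totals only and 1 with no filter, with the replicate block and on leaving out either set of libraries chosen after seeing the data, and 1 to 3 without single libraries. The count of striatal markers called higher was 1 with the replicate block and without either of those sets, and 1 to 2 without single libraries. The log2 fold change of Cyp1b1 was -0.30 (adjusted p = 0.557) without the 2 deleted libraries highest in meningeal markers. Scaling moved the median of all genes by at most 0.062, and the share of calls that were higher went from 48.2% to 56.6% with upper-quartile factors and 57.2% with library totals only. Replicate numbers did not pair the embryos: same-numbered libraries had correlated deviations of -0.229, 0.005, 0 and -0.455, and with the block no call among the 10 genes changed, while those of Nr2f2 (adjusted p = 0.0555), Hbb-y (0.0628), Cfap45 (0.0677) and Penk (0.0734) were lost. Depth limits Aldh1a1, Aldh1a2, Cyp26a1 and Cyp26c1. Of 835 values of 44 other named genes under the alternatives, 795 kept direction and call, 36 lost the call, 3 gained it and 1 reversed.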
